A study of Mus musculus with 8 samples.

Results

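Kinesins are motor proteins that hydrolyse ATP to move along microtubules or to take them apart. The members described here are the protein-coding mouse genes whose symbol is Kif or Kifc followed by a number, with a letter where the family has one, and 41 of the 55487 genes in the files met that rule. They were counted in RNA-seq of mouse haematopoietic stem cells (HSCs), the cells that maintain blood formation, which were sorted and made into 8 bulk libraries. Libraries were prepared by Smart-seq2, which amplifies full-length cDNA from few cells. Of these, 4 are labelled NTC, a non-target control, and 4 miR652-KD, in which the microRNA miR-652 was knocked down. The labels give no strain, age, sort markers or knockdown method, and do not say whether replicates came from separate animals, so the p-values cover variation from library to library only, and some of it may be technical.

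Cells use one set of kinesins to build and take apart the mitotic spindle and to finish cytokinesis, and another to carry vesicles, organelles and mRNA. Genes of the first set are known to be transcribed mainly in G2 and M phase, while many of the second are transcribed throughout the cell cycle. HSCs are known to be mostly quiescent, so mitotic kinesin transcripts in a bulk HSC library may come largely from the cells that are dividing. The share of dividing cells in these libraries was not measured. In bulk libraries a different share of dividing cells and a different amount of RNA per cell cannot be told apart. From textbook roles, 12 members were taken as mitotic, 15 as transport kinesins and 14 as others, among them motors of cilia and regulators of microtubule ends.

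Promoters were searched for elements known from cell-cycle genes, and 4 are shown as examples that hold or lack them. The cell-cycle genes homology region, bound by the MuvB core of the DREAM and MYB complexes, has the core TTTGAA, and CCAAT is the box bound by NF-Y. Each window holds 250 bases before and 50 after an annotated start (RefSeq, GRCm38.p6), both strands were searched, the 2 motifs share no bases in the windows shown, and capitals mark them in either orientation. Kif11 (chr19:37376132-37376431, plus strand), Kif4 (chrX:100625815-100626114, plus strand) and Kif18b (chr11:102925075-102925374, minus strand) are mitotic, and Kif3a (chr11:53567119-53567418, plus strand) is a transport kinesin.
Kif11: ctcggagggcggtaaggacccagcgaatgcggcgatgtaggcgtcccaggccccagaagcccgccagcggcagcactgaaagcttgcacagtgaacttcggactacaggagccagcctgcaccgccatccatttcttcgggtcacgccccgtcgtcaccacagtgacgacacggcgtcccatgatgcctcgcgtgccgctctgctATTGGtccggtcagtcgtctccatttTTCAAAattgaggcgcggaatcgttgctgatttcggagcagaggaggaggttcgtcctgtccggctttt
Kif4: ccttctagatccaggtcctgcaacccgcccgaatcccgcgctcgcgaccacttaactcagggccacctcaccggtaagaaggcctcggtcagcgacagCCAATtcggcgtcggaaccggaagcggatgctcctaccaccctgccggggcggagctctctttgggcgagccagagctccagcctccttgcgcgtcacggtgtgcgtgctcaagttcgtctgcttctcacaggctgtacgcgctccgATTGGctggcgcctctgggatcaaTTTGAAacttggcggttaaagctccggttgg
Kif18b: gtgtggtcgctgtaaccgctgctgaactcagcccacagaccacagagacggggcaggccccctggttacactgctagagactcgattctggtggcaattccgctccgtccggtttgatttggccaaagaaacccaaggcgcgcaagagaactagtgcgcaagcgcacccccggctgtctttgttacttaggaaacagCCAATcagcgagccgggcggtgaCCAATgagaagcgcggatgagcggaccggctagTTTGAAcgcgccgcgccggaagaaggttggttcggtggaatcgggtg
Kif3a: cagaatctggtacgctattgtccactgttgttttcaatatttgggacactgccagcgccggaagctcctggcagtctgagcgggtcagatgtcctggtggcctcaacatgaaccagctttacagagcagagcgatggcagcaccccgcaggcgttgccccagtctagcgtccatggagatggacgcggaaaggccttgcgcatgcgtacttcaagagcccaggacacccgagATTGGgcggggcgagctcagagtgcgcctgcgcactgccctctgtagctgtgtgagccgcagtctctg

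Of the 41 members 32 had a promoter entry, and a gene with more than 1 start was counted as having a motif when any start had it. TTTGAA stood in 10 of 11 mitotic kinesins, namely Kif2c, Kif4, Kif11, Kif14, Kif15, Kif18b, Kif20b, Kif22, Kif23 and Kifc1, and not in the window of Kif18a. It stood in 1 of 10 transport kinesins (Kif1a) and in 2 of 11 others (Kif26b and Kif27), against 20.2% of all 27025 genes with an entry, counted the same way. Within 30 bases of the start on either side, a distance chosen after the positions were seen, 8 of 11 mitotic, 0 of 10 transport and 1 of 11 other kinesins had it, against 2.90% of all 32851 windows. CCAAT was found in 7 of 11 mitotic, 3 of 10 transport and 5 of 11 other kinesins, against 41.1% of all genes. Both motifs together were found in 7 of 11 mitotic and 0 of 10 transport kinesins, against 8.97% of all genes. A match describes the letters and is not shown to be a bound site.

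The knocked-down microRNA has 2 arms, shown here with the seed (bases 2 to 8) in capitals because the seed sets which 3′ UTR letters can pair with it.
mmu-miR-652-3p: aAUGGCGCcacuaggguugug
mmu-miR-652-5p: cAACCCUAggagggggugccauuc

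In the longest annotated 3′ UTR of each gene (GENCODE M21), 0 of 41 kinesins held the 7 letters that pair with the 3p seed. Among tested genes with a UTR these were 0 of 31 kinesins against 1.98% of all 11608. The letters that pair with the 5p seed were held by 4 of 41 kinesins: the transport kinesins Kif1c, Kif5b and Kif5c and the mitotic kinesin Kif14. Among tested genes with a UTR these were 3 of 31 kinesins against 8.45% of all 11608. The site of Kif14, at base 1018 of a UTR of 3895 bases, reads 5′ to 3′ with the pairing letters in capitals.
Kif14: tcctacttTAGGGTTtgacttaa

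Kif14 and Kif5b both had log2 differences below 0 (-0.67, SE 0.70, and -0.20, SE 0.13), Kif1c was at 0.03 (SE 1.35) and Kif5c had too few counts to be tested. None of these values passed the test described below.

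Libraries held 14017632 to 19894821 counts in genes. A list of 12 markers used for HSCs and their sorting, among them Kit, Hlf, Procr and Mecom, summed to 3077 to 3571 CPM (counts per 1000000 counts in genes) in NTC and 2799 to 3067 CPM in miR652-KD. The list also holds Cd34, Flt3 and Cd48, which are not specific to HSCs, so the sum does not measure HSC identity. Members of that list differed in direction, 3 above 0 and 9 below, with a median log2 difference of -0.15. At an unadjusted edgeR p below 0.05 there were 5 of 12, 1 of them higher, beside 5.99% of all tested genes. Groups did not overlap for 4 of 12, beside 4.5% of all tested genes. An edgeR adjusted p below 0.05 was reached by 0 of 12, against 0.0418% of all tested genes. Cd34 was at 506 to 521 CPM in NTC against 253 to 342 CPM in miR652-KD (log2 difference -0.71, edgeR adjusted p = 0.125). Ly6a, the 1 that was higher, was at 240 to 296 against 316 to 490 CPM (0.62, edgeR adjusted p = 0.598). The hairpin Mir652 had 0 to 5 counts, so the knockdown could not be checked. Summed markers of granulocytes and monocytes ran from 1411 to 17697 CPM in NTC against 1448 to 6522 CPM in miR652-KD, with NTC replicates 3 and 4 at 11358 and 17697 CPM. Erythroid markers summed to 4207 to 7956 CPM in NTC against 1816 to 4562 CPM in miR652-KD. Car2, at 1760 to 2216 CPM in miR652-KD, made up much of the sums there, and the list had a median log2 difference of -2.41, with Alas2 at 42.2 to 59.2 CPM in NTC against 1.70 to 17.3 CPM in miR652-KD. B and T cell markers stayed at 44.0 to 92.7 CPM in all libraries, with 3 of 12 at 0 throughout.

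The HSC libraries held most of the kinesins. A mean of at least 1 CPM was reached by 31 of 41 members, and the same number passed the filter on low counts and were tested. Of all 55487 genes 14360 were tested. No count was found for Kif2b, Kif12, Kif26b and Kif28, which over all libraries allows up to 0.0233 CPM each (3 counts, counting error only). Kif1a, a motor of neuronal axons, had 1 count, Kif26a 2 and the ciliary Kif27 28 counts in all, while Kif19a, Kif5c and Kifc3 had 114, 116 and 115 counts over the 8 libraries.

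Per kilobase of annotated exon, the mean level over the 8 libraries was highest for Kif5b, the ubiquitous heavy chain of kinesin-1, at 13.3 CPM per kb. The chromokinesin Kif22 followed at 12.0, the microtubule depolymerase Kif2a at 9.70 and Kif3a, a subunit of the heterotrimeric kinesin-2, at 8.499 CPM per kb. The cytokinesis motor Kif23 was at 5.70, Kif13a at 4.93, Kif20b at 4.45, Kif20a at 3.86, Kif11 at 3.79 and Kif2c at 3.76 CPM per kb. Of the 10 highest members 6 were mitotic. Kif18a at 0.425 and Kifc1 at 0.402 CPM per kb were the lowest mitotic members. The exon lengths include stretches shared with other genes, where reads may not all be counted, and the levels were not corrected for this. Of the distinct 50-base stretches 39.7% in Kifc1, 25.2% in Kif20a and 19.7% in Kif2a also occur in other genes, so the order is approximate.

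**Figure D1:**
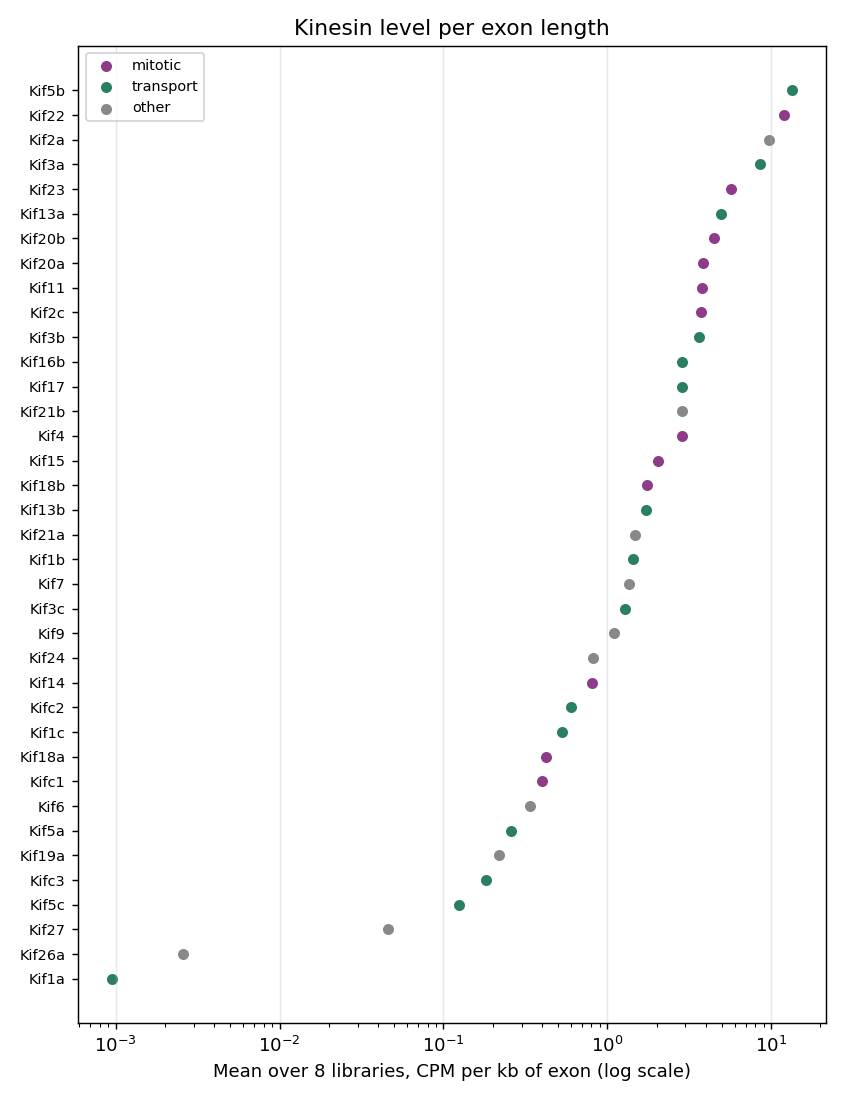
Mean level of the 37 kinesin genes with any count, in CPM per kb of exon over 8 libraries, on a log axis; colour gives the role. Mitotic kinesins lie among the transport kinesins, from Kif22 at 12.0 to Kifc1 at 0.402 CPM per kb, and Kif1a and Kif26a lie far below the rest. Exon stretches shared with other genes were not corrected for.

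No kinesin gene passed the threshold between miR652-KD and NTC. With edgeR's quasi-likelihood test and Benjamini-Hochberg adjustment over 14360 genes, 0 of 31 tested kinesins had an adjusted p below 0.05, against 0.0418% of all tested genes, and the smallest adjusted p was 0.801. DESeq2 called 0 of the 30 kinesins to which it gave an adjusted p (Kif17 had none) against 0.426% of the genes it tested, and limma-voom 0 of 31 against 0.0487%. At an unadjusted p below 0.05 there were 2 of 31 kinesins, Kif20a and Kif6, a share of 6.45% beside 5.99% of all tested genes. Groups did not overlap for 1 of 31, Kif20a, a share of 3.23% beside 4.5% of all tested genes, or 2.35% when only genes higher in miR652-KD are counted, as Kif20a was. Both shares lie near the background, so they are not a result about kinesins.

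The 12 mitotic kinesins, all tested, had a median log2 difference (miR652-KD minus NTC) of 0.33, with 9 above 0 and 3 below, while the median of all tested genes was -0.004 and 49.5% of them lay above 0. The 12 tested transport kinesins had a median of -0.0002, with 6 above 0 and 6 below. The mitotic median was 0.19 without NTC replicate 1 and 0.19 with limma-voom, and 0.43 without NTC replicates 3 and 4 together. No test of the lists was made, and the transport median was 0.03 with upper-quartile scaling and -0.01 with RLE scaling.

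**Figure D2:**
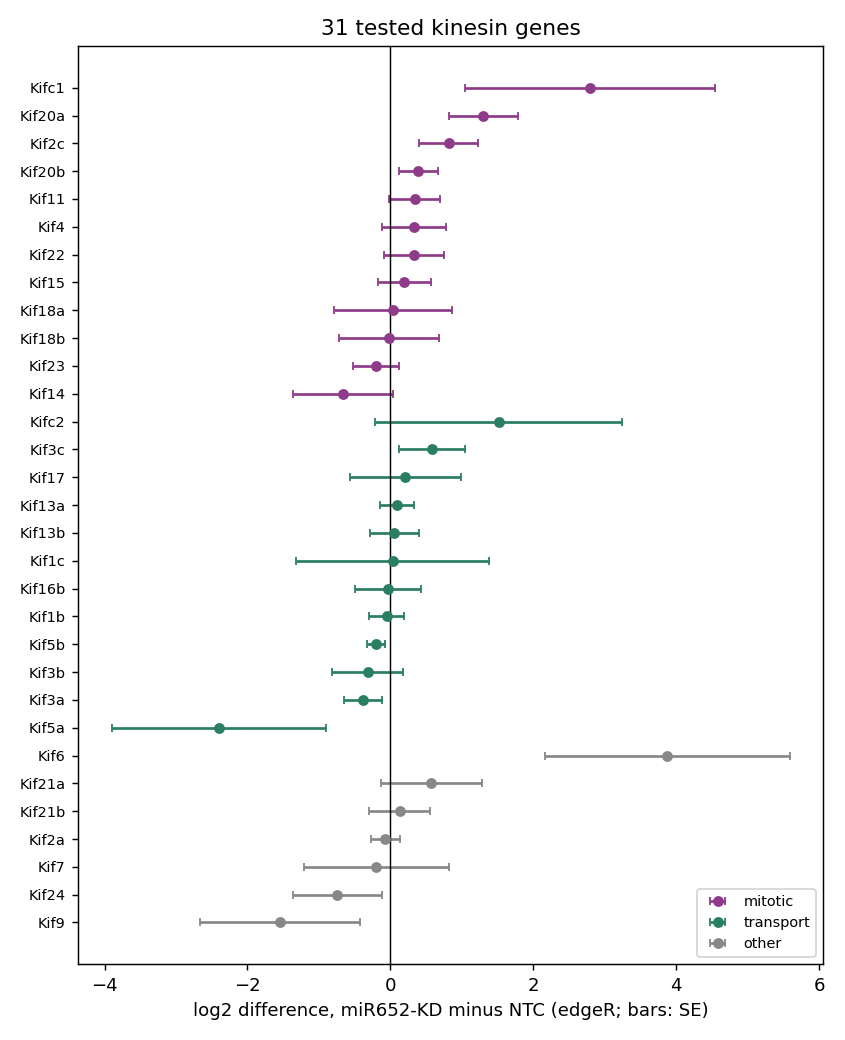
Log2 difference of miR652-KD minus NTC for the 31 tested kinesin genes, from edgeR, with bars of 1 SE; colour gives the role. Among mitotic kinesins 9 of 12 points lie to the right of 0, transport kinesins lie 6 on each side, and the longest bars belong to genes of few counts such as Kifc1, Kifc2 and Kif6.

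The kinesins that align chromosomes are described first. Kif2c, a kinesin-13 that depolymerises microtubules at centromeres, was at 6.05, 9.84, 18.7 and 12.8 CPM in NTC replicates 1 to 4 and at 18.2, 21.4, 30.2 and 13.9 CPM in those of miR652-KD. The highest NTC library lay above 2 of the miR652-KD libraries, so the groups overlapped. Its log2 difference was 0.81 (SE 0.41, edgeR adjusted p = 0.868). It was 1.39 when NTC replicates 3 and 4 were both left out. Kif22, a chromokinesin that pushes chromosome arms from the poles, was at 28.1, 29.0, 92.8 and 59.3 CPM in NTC and at 36.2, 97.3, 71.6 and 57.7 CPM in miR652-KD. It was low in NTC replicates 1 and 2 and in miR652-KD replicate 1, and its log2 difference was 0.33 (SE 0.42). It was 0.083 without miR652-KD replicate 2, 0.76 without NTC replicate 3 and 1.21 when NTC replicates 3 and 4 were both left out.

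Kif4, the other chromokinesin of chromosome arms and the spindle midzone, was at 14.4, 10.99, 20.6 and 9.57 CPM in NTC and at 12.3, 9.61, 33.7 and 14.3 CPM in miR652-KD. The replicates numbered 3 were the highest of each group, and without that of miR652-KD its log2 difference of 0.33 (SE 0.45) turned to -0.19. Kif18a, a kinesin-8 that damps chromosome movement at metaphase, was at 2.69, 4.85, 3.10 and 5.88 CPM in NTC and at 9.40, 1.70, 1.16 and 4.62 CPM in miR652-KD. Here the miR652-KD libraries held both the highest and the lowest values, with a log2 difference of 0.04 (SE 0.82).

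Among kinesins that shape the spindle, Kif11, the plus-end motor that pushes the poles apart was at 19.7, 22.8, 40.4 and 16.9 CPM in NTC and at 29.7, 17.6, 41.4 and 37.5 CPM in miR652-KD. In miR652-KD 3 of 4 libraries lay above 3 of 4 NTC libraries, and the log2 difference was 0.34 (SE 0.36), or 0.19 when miR652-KD replicate 3 was left out and 0.68 when NTC replicate 3 was. Kif15, which helps to keep the spindle bipolar, was at 19.2, 17.8, 28.2 and 19.0 CPM in NTC and at 19.8, 18.8, 43.4 and 14.4 CPM in miR652-KD. Again the replicates numbered 3 stood above the others, and the log2 difference was 0.19 (SE 0.37), or -0.25 without miR652-KD replicate 3.

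Kif18b, a kinesin-8 that shortens astral microtubules, was at 3.23, 9.77, 4.29 and 7.86 CPM in NTC and at 10.5, 1.46, 8.14 and 4.79 CPM in miR652-KD. The groups overlapped over most of their ranges, with a log2 difference of -0.02 (SE 0.70). Kifc1, the minus-end kinesin-14 that focuses spindle poles, was at 0.740, 0.642, 0 and 0 CPM in NTC and at 4.84, 4.50, 0.101 and 0.173 CPM in miR652-KD. Of its 170 counts most lay in miR652-KD replicates 1 and 2, so its log2 difference of 2.79 (SE 1.75, adjusted p = 0.934) rests mainly on those libraries. Its counts are also uncertain, since 38.6% of its distinct 50-base stretches occur in the near-identical Kifc5b, which had 0 to 8.07 CPM in NTC against 0 to 4.97 CPM in miR652-KD.

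The kinesins of cytokinesis had log2 differences on both sides of 0. Kif20a (ENSMUSG00000003779.16, mm10, chromosome 18, 34624613 to 34633277, plus strand), which brings the chromosomal passenger complex to the central spindle, was at 8.21, 2.78, 11.2 and 16.5 CPM in NTC and at 17.6, 24.6, 29.8 and 23.3 CPM in miR652-KD. All miR652-KD libraries lay above all NTC libraries, the nearest values being 16.5 and 17.6 CPM. The means were 9.68 ± 5.75 and 23.8 ± 4.997 CPM (n = 4, SD), a log2 difference of 1.30 (SE 0.48), which did not pass over all genes (edgeR adjusted p = 0.801) and was 2.14 without NTC replicates 3 and 4 together. Of its exon bases 29.3% overlap exons of Cdc23 on the opposite strand, and reads there cannot be assigned without strand. Cdc23, a subunit of the anaphase-promoting complex, was at 58.3 ± 10.0 CPM in NTC against 76.3 ± 19.1 CPM in miR652-KD (n = 4, SD).

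Kif23 (ENSMUSG00000032254.10, chromosome 9, 61915905 to 61946774, minus strand), the motor of centralspindlin, was at 33.2, 40.9, 63.5 and 55.0 CPM in NTC and at 23.5, 32.6, 60.3 and 51.2 CPM in miR652-KD. In both groups replicates 3 and 4 were above replicates 1 and 2. Over all tested genes same-numbered libraries did not deviate together, and the labels do not say whether they share an origin. The log2 difference of Kif23 was -0.20 (SE 0.32), and 0.18 without NTC replicates 3 and 4 together. Kif20b, another motor of late mitosis, was at 41.1, 17.3, 25.2 and 23.9 CPM in NTC and at 42.2, 32.4, 33.7 and 31.7 CPM in miR652-KD. The miR652-KD libraries lay above 3 of the NTC libraries, and the log2 difference was 0.39 (SE 0.27, adjusted p = 0.962), or 0.25 without NTC replicate 2 and 0.65 without NTC replicate 1. Kif14, which recruits citron kinase to the midbody, was at 6.39, 7.06, 13.1 and 14.6 CPM in NTC and at 3.00, 2.19, 16.8 and 4.04 CPM in miR652-KD. It was lowest in 3 of the miR652-KD libraries and highest in the other, with a log2 difference of -0.67 (SE 0.70), or -1.73 without miR652-KD replicate 3.

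**Figure D3:**
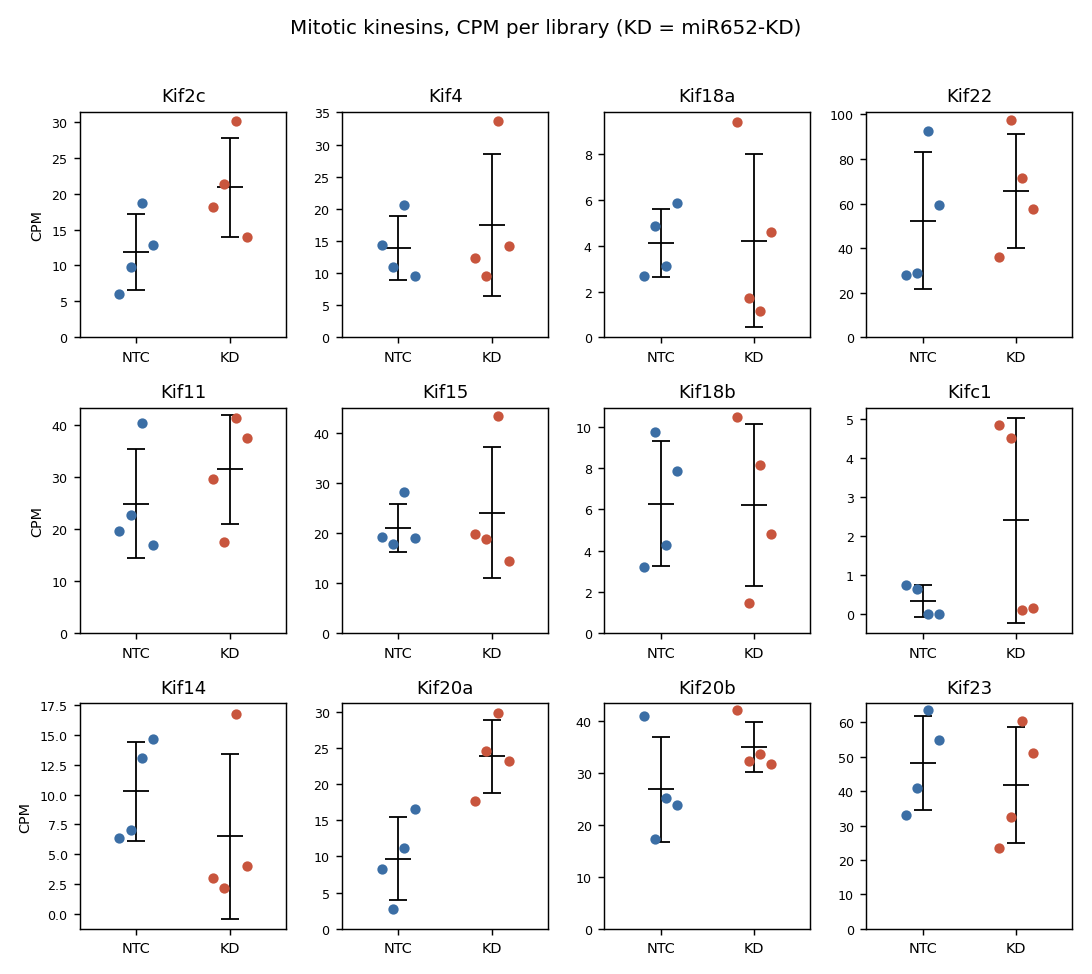
CPM of the 12 mitotic kinesins in each library (points), with the mean and SD of 4 libraries per group (bars); the vertical axes are linear and differ between panels. Kif20a is the gene whose groups do not overlap, at 2.78 to 16.5 CPM in NTC against 17.6 to 29.8 CPM in miR652-KD, and Kif4, Kif15 and Kif14 each have 1 miR652-KD library far above the other 3.

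Summed over the 12 mitotic kinesins, NTC replicates 1 to 4 held 183, 174, 321 and 241 CPM and those of miR652-KD 227, 264, 370 and 258 CPM. NTC replicate 3 lay above 3 of the miR652-KD libraries, so the groups overlapped. The 15 transport kinesins summed to 331, 300, 316 and 314 CPM in NTC and 300, 323, 277 and 266 CPM in miR652-KD, a narrower range. The mitotic share of all kinesin CPM was 33.7% ± 6.26 in NTC against 39.8% ± 4.71 in miR652-KD (n = 4, SD), from 28.4% in NTC replicate 1 to 46.0% in miR652-KD replicate 3, again with overlap.

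The summed CPM of G2 and M phase genes other than kinesins was highest in the replicates numbered 3 of each group, but that of S phase genes was not. This held for the sum and not for every gene. A list of 20 G2 and M phase genes without kinesins summed to 743, 766, 1159 and 1004 CPM in NTC and to 873, 1197, 1841 and 1164 CPM in miR652-KD, with miR652-KD replicate 3 highest of all and NTC replicate 3 highest in its group, as for mitotic kinesins. Of these genes 14 of 20 lay above 0, with a median of 0.48. At an unadjusted edgeR p below 0.05 there were 6 of 20, each of them higher, beside 5.99% of all tested genes in either direction. Of the list 0 passed, against 0.0418% of all tested genes. The listed genes of smallest p were Anln at 1.33, Ube2c at 1.08 and Mki67, the proliferation antigen Ki-67, at 0.80. Granulocyte and monocyte markers were higher in NTC replicates 3 and 4, at the values given above. Among miR652-KD libraries the order was another. The sum of these markers was highest there in replicate 1 (6522 CPM), the lowest of its group for mitotic kinesins. It was lowest in replicate 3 (1448 CPM), the highest for mitotic kinesins. The listed genes behind the high sums differed. In miR652-KD replicate 1, Mpo gave 1979 CPM and Elane 1920, but Ngp only 4.77 and S100a8 36.4. Ngp gave 2413 CPM in NTC replicate 3 and 3623 in NTC replicate 4. Elane was high in these libraries too (1311 and 2535 CPM). The orders within the groups thus rest partly on different genes. The part of these markers in the kinesin levels was not tested.

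**Figure D4:**
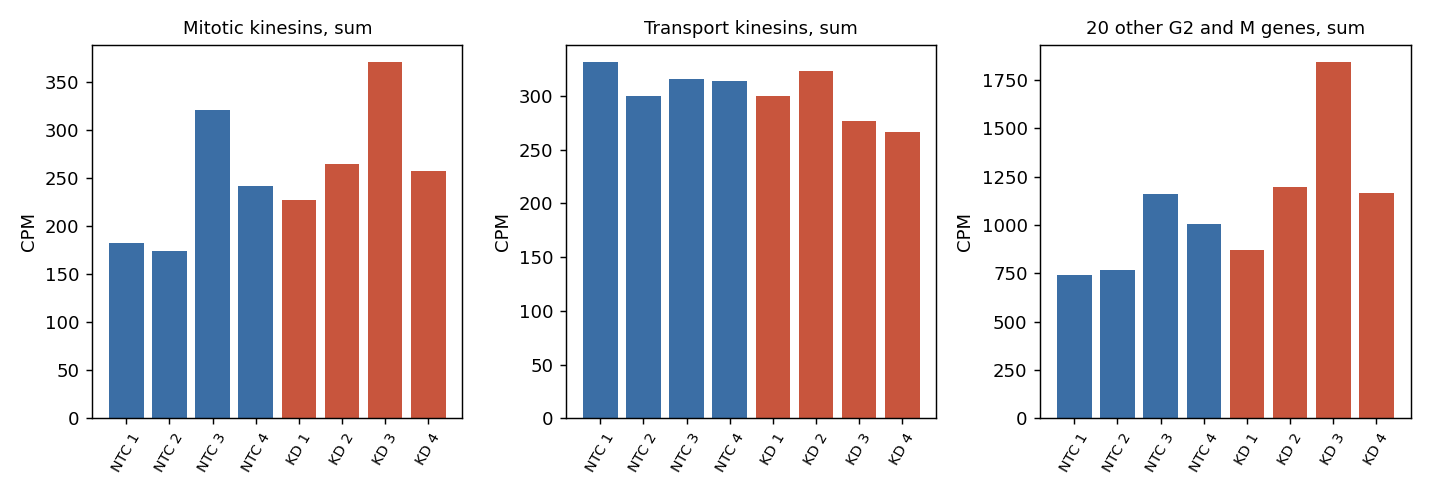
Summed CPM per library of the 12 mitotic kinesins, the 15 transport kinesins and 20 G2 and M phase genes that are no kinesins, on linear axes from 0. Replicate 3 is the highest library of each group for the mitotic kinesins and the G2 and M genes (321 and 370 CPM for mitotic kinesins), while transport kinesins stay between 266 and 331 CPM.

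Proteins that work with mitotic kinesins mostly had log2 differences above 0. Of 19 such partners, a list chosen with earlier results known, all were tested, and 16 lay above 0, with a median of 0.61. At an unadjusted edgeR p below 0.05 there were 8, each of them higher, beside 5.99% of all tested genes in either direction. Of the partners 0 passed over all genes, against 0.0418% of all tested genes. Cdca8, of the chromosomal passenger complex, was at 64.2 ± 6.49 CPM in NTC against 115 ± 34.8 CPM in miR652-KD (n = 4, SD), a log2 difference of 0.84 (edgeR adjusted p = 0.598). The spindle protein Nusap1 was at 0.93 and the mitotic kinase Cdk1 at 0.61. Cenpe, a kinesin of the kinetochore whose symbol lies outside the naming rule, was at 30.7 ± 8.55 CPM in NTC against 40.2 ± 15.7 CPM in miR652-KD (n = 4, SD), a log2 difference of 0.39 (SE 0.33). Racgap1, which forms centralspindlin with Kif23, had a log2 difference of 0.74 (SE 0.26, adjusted p = 0.782) beside -0.20 for Kif23. The 20 S phase genes summed to 1687, 2549, 2070 and 1449 CPM in NTC and to 2757, 2457, 1915 and 2210 CPM in miR652-KD, so that miR652-KD replicate 3, highest for mitotic kinesins, was the lowest of its group here. Of these S phase genes 15 lay above 0, with a median of 0.25 and 0 past the threshold, against 0.0418% of all tested genes. At an unadjusted edgeR p below 0.05 there were 5 of 20, each of them higher, beside 5.99% of all tested genes in either direction. Pola1 (0.77) and Uhrf1 (0.95) were among the listed genes of smallest p.

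Among transport kinesins, Kif5b (ENSMUSG00000006740.14, chromosome 18, 6201002 to 6242174, minus strand) was the most abundant kinesin, at 134, 116, 110 and 94.8 CPM in NTC and 91.2, 99.8, 101 and 103 CPM in miR652-KD. The miR652-KD libraries lay below 3 of the NTC libraries and overlapped the other. Its log2 difference of -0.20 had the smallest SE of all members (0.13, edgeR adjusted p = 0.934). The paralogues Kif5a and Kif5c, known mainly from neurons, were at 0.285 to 6.92 and 0 to 5.19 CPM in NTC against 0 to 1.79 and 0 to 0.0681 CPM in miR652-KD. Kif5a had a log2 difference of -2.39 (SE 1.498) on 234 counts in all.

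Kinesin-2 is made of Kif3a with Kif3b or Kif3c and also drives transport in cilia. Kif3a was at 23.3, 39.3, 37.6 and 37.9 CPM in NTC and 19.3, 33.6, 28.7 and 24.2 CPM in miR652-KD. NTC replicate 1 lay among the miR652-KD values and the other 3 NTC libraries lay above them, with a log2 difference of -0.39 (SE 0.27, adjusted p = 0.948). Kif3b was at 15.8 to 34.3 CPM in NTC against 7.79 to 39.2 CPM in miR652-KD (-0.32, SE 0.50), and Kif3c at 5.26 to 11.6 and 7.42 to 17.2 CPM (0.58, SE 0.46). Of the exon bases of Kif3c 35.3% overlap an antisense gene, 1110002L01Rik. Kifap3, the adaptor that links kinesin-2 to cargo, was at 16.2 ± 8.04 CPM in NTC against 27.7 ± 7.23 CPM in miR652-KD (n = 4, SD), with a log2 difference of 0.79 (SE 0.36, adjusted p = 0.844). The homodimeric kinesin-2 Kif17 was at 9.37 to 16.5 CPM in NTC and at 4.91, 42.9, 3.12 and 5.31 CPM in miR652-KD. Its log2 difference of 0.21 (SE 0.78) was -1.43 without miR652-KD replicate 2.

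The kinesin-3 motors, which carry endosomes, lysosomes and vesicle precursors, had values close to 0. Kif13a was at 41.9, 46.8, 36.3 and 29.8 CPM in NTC and 42.4, 48.8, 46.2 and 27.2 CPM in miR652-KD (0.09, SE 0.24). Kif1b was at 28.8, 23.6, 21.2 and 29.5 CPM in NTC and 18.2, 24.1, 27.5 and 29.3 CPM in miR652-KD (-0.05, SE 0.24). In both genes the group ranges almost coincided. Kif16b, an early endosome motor, was at 29.3, 11.2, 35.1 and 29.997 CPM in NTC and 46.3, 12.3, 16.4 and 27.5 CPM in miR652-KD (-0.03, SE 0.47). Kif13b was at 26.6, 17.1, 26.3 and 18.3 CPM in NTC and 28.3, 13.4, 32.7 and 17.0 CPM in miR652-KD (0.06, SE 0.34). Libraries of 1 group differed more than 2-fold in both of these genes within miR652-KD. Kif1c, at 0.285 to 10.3 CPM in NTC against 0.404 to 10.4 CPM in miR652-KD, had a log2 difference of 0.03 with a wide error (SE 1.35). The minus-end motor Kifc2 was at 0 to 4.44 and 0.151 to 7.49 CPM (1.51, SE 1.73).

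Cargo adaptors and the opposing motor gave no common direction. Of 21 kinesin adaptors and cargo linkers 18 were tested, 9 above 0 and 9 below, with a median of 0.00. At an unadjusted edgeR p below 0.05 there were 0, beside 5.99% of all tested genes. Besides Kifap3, those of smallest p were Plekhm2, which links lysosomes to kinesin-1, at 0.77, and the mitochondrial adaptor Trak1 at 0.69. Of 19 dynein and dynactin genes 8 lay above 0 and 11 below, with a median of -0.02. At an unadjusted edgeR p below 0.05 there were 2 of 19, 1 of them higher, beside 5.99% of all tested genes. The dynein light intermediate chain Dync1li2 was at -0.51, the light chain Dynlrb1 at 0.28 and the intermediate chain Dync1i2 at -0.26. Of both lists 0 passed, against 0.0418% of all tested genes.

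Other kinesins included Kif2a, a depolymerase related to Kif2c that also acts outside mitosis, at 58.4, 64.8, 51.5 and 79.4 CPM in NTC and 61.999, 48.6, 76.8 and 54.6 CPM in miR652-KD. The ranges coincided, with a log2 difference of -0.07 (SE 0.20). Of its exon bases 19.2% overlap Dimt1 on the opposite strand. Kif21b, which limits microtubule growth, was at 29.3, 12.3, 38.2 and 53.2 CPM in NTC and 33.5, 41.4, 50.4 and 19.8 CPM in miR652-KD (0.13, SE 0.42), and its relative Kif21a at 1.57 to 14.3 and 5.78 to 13.4 CPM (0.57, SE 0.70).

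Kinesins of cilia and centrioles were low. Kif6 was at 0, 0.999, 0 and 0 CPM in NTC and 0.818, 4.32, 5.88 and 4.16 CPM in miR652-KD. NTC replicate 2 lay above miR652-KD replicate 1, so the groups overlapped by 1 library. Its log2 difference of 3.87 (SE 1.71, unadjusted p = 0.0473, edgeR adjusted p = 0.833) depends on 14 counts in NTC, and the gene passed the filter through the miR652-KD libraries alone. Kif9 was at 8.27, 8.20, 8.17 and 3.35 CPM in NTC and 0, 1.64, 5.18 and 2.77 CPM in miR652-KD, with overlap of 1 library each way (-1.54, SE 1.12, adjusted p = 0.965). Kif24, a centriolar depolymerase, was at 3.89 to 11.3 and 1.98 to 8.63 CPM (-0.74, SE 0.62). Kif7, a regulator of Hedgehog signalling at the cilium tip, was at 1.21 to 16.5 and 0.409 to 9.65 CPM (-0.20, SE 1.01). Of its exon bases 19.1% overlap an antisense gene, 9330171B17Rik.

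**Figure D5:**
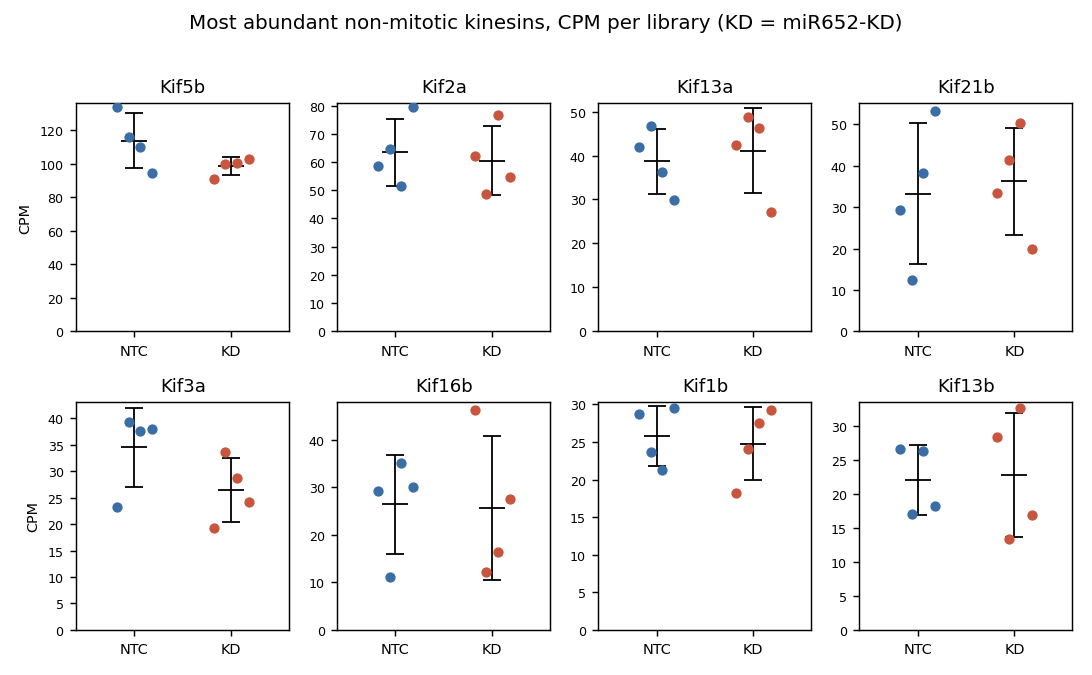
CPM per library (points) of the 8 most abundant kinesins outside the mitotic set, with the mean and SD of 4 libraries per group (bars); the vertical axes are linear and differ between panels. The groups overlap in all 8 genes, and Kif5b varies least, at 91.2 to 134 CPM.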

How the data were processed

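Each deposited file gives 1 library's raw counts by gene, made with HISAT2 2.1.0, HTSeq 0.11.2 and the mm10 build, per the submitters' processing notes, which also name DESeq2; the strand setting was not given in the sources used here, nor the annotation release. The 5 HTSeq summary lines were left out. Reads outside genes made up 9.69% to 16.9% and ambiguous reads 8.94% to 12.3% of each file. NTC replicate 1 held both the highest share outside genes (16.9%) and the lowest ambiguous share (8.94%). Identifiers were matched to GENCODE M21 (55394 of 55487). Members, lists and roles were chosen with earlier results of these data known.

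CPM were counts per 1000000 over all genes. Fold changes came from edgeR 4.0.16 (R 4.3.3) on all genes passing filterByExpr (minimum count 10), with TMM scaling, robust quasi-likelihood fits and Benjamini-Hochberg adjustment; SE is the log2 difference divided by the square root of F. Values per library were named for all mitotic kinesins and the 8 most abundant others, and for any member without overlap or past the threshold; partner lists are given by counts and the 3 genes of smallest p, of which some are not reported here. DESeq2 1.42.0, limma-voom (limma 3.58.1), scaling, filters, a replicate block and leaving out libraries were alternatives. Exon length is the union of annotated exons. Smart-seq2 has no molecular identifiers, so limits from counts cover counting error only.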

Additional observations from a re-analysis of the deposited data

Results flagged for a closer look

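In 9 of 62 groups of 4 libraries, 1 library stood apart from the other 3 by more than Dixon's 95% critical value for the gap divided by the range; chance gives about 1 in 20 groups. High values were those of Kif14 in miR652-KD replicate 3 (16.8 CPM), Kif15 in NTC replicate 3 (28.2 CPM), Kif17 in miR652-KD replicate 2 (42.9 CPM), Kif5a in miR652-KD replicate 4 (1.79 CPM), Kifc2 in NTC replicate 1 (4.44 CPM) and Kif6 in NTC replicate 2 (0.999 CPM). Low values were those of Kif21a in miR652-KD replicate 3 (5.78 CPM), Kif9 in NTC replicate 4 (3.35 CPM) and Kif3a in NTC replicate 1 (23.3 CPM).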

How the results depend on the processing

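No kinesin passed under any of the 18 alternatives. Over all genes, 6 passed with edgeR, 61 with DESeq2, 0 without both NTC replicates 3 and 4 (884 at an unadjusted p below 0.05), and 0 to 0 when single libraries were left out (789 to 992 unadjusted); the cause was not tested. With the replicate number as a block 0 passed (733 unadjusted). Over all tested genes, same-numbered libraries did not deviate together (correlations -0.033 to -0.010). Whether they share an animal, day or batch is not stated, and correlations taken over all genes cannot decide it. With the block, log2 differences turned to -0.0078 for Kif13b, -0.74 for Kif17, -0.43 for Kif18a and 0.047 for Kif7. With limma-voom they turned to -0.021 for Kif13b, -0.58 for Kif17 and -0.21 for Kif18a, and with upper-quartile scaling to 0.0041 for Kif18b. Without both NTC replicates 3 and 4 they turned to -0.10 for Kif13a, 0.36 for Kif16b, 0.18 for Kif23, 0.016 for Kif5a and 0.47 for Kif7.

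Leaving out single libraries moved the mitotic median between 0.19 and 0.48 and the transport median between -0.16 and 0.06. Log2 differences that crossed 0 ran from -0.25 to 0.37 for Kif15, -0.72 to 0.35 for Kif18a, -0.40 to 0.31 for Kif18b, -0.19 to 0.59 for Kif4, -0.14 to 0.46 for Kif21b, -0.20 to 0.064 for Kif2a, -0.54 to 0.80 for Kif7, -0.0092 to 0.24 for Kif13a, -0.16 to 0.25 for Kif13b, -0.49 to 0.21 for Kif16b, -1.43 to 0.55 for Kif17, -0.15 to 0.070 for Kif1b and -1.15 to 1.26 for Kif1c. Of 31 kinesins 16 kept their direction under every alternative run. Genes of few counts, such as Kifc1 and Kif6, have standard errors above 1.5 on the log2 scale, so changes of severalfold were not detectable in them.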

Other observations

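Kif20a and Kif23 both act at the central spindle, and their ratio was looked at after their values were seen, so it carries no test. The ratio of Kif20a to Kif23 CPM was 0.247, 0.0681, 0.177 and 0.301 in the NTC libraries, against 0.751, 0.756, 0.495 and 0.454 in the miR652-KD libraries (each in replicate order). The groups did not overlap in this ratio, as they did not in Kif20a alone, so the separation was largely fixed by Kif20a.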
